A study of Mus musculus with 8 samples.

Results

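The integrated stress response (ISR) gene set examined here holds 35 genes: ATF4, transcripts known as its targets, and 12 of the cytosolic tRNA synthetases. The genes were taken by name, with no threshold on their change, and each was found among the 56748 Ensembl gene IDs of the count tables. Of the 35 genes, 33 had enough counts to be tested, among 14942 genes tested in all. The exceptions were Chac1 and Vldlr, which stayed under the filter on low counts. By role the set holds 5 transcription factors, 5 brakes and effectors, 9 enzymes of amino acid and one-carbon metabolism, 4 amino acid transporters and 12 synthetases. A second Ensembl ID that also carries the name Ddit3 had no counts and was not used.

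RNA-seq was performed on resting bone marrow derived mast cells (BMMCs), grown from the bone marrow of C57BL/6 mice with IL-3. In the Mettl3-RNP group (genotype Mettl3 KO, 4 libraries) the cells were electroporated with ribonucleoproteins of Cas9 and guide RNAs against Mettl3, the catalytic enzyme of the complex that places m6A on mRNA. In the Pulsed group (genotype Mettl3 WT, 4 libraries) the cells went through a mock transfection without RNPs, so Cas9 and guide RNA were absent from the control. The series text names 4 mice for the 8 samples and the labels number both groups from 1 to 4, so libraries with the same number were treated as pairs. By the study's methods BMMCs came from mice aged 6 to 8 weeks. The Mettl3-RNP cells were not cloned or sorted, and by the study's description they still held cells that had escaped targeting. These are bulk samples, in which fewer cells of one kind and less RNA per cell cannot be told apart.

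The ISR is a shared answer to several kinds of stress. The kinases GCN2, PERK, PKR and HRI phosphorylate the initiation factor eIF2, which lowers general translation and lets ribosomes reach the main reading frame of the Atf4 mRNA. ATF4 protein then binds C/EBP-ATF response elements near its targets and raises genes that import and make amino acids, feed one-carbon metabolism and charge tRNAs. Because ATF4 is set mainly by translation, the level of its mRNA does not report the level of the protein, and neither protein nor eIF2 phosphorylation was measured in these libraries.

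The C/EBP-ATF element is shown first, since it is the DNA element through which ATF4 is known to act. The letters TGATGNAA were searched on both strands in the 300 bases from 250 upstream to 50 downstream of each gene's annotated start (GRCm39, GENCODE canonical transcript). They occurred in the promoters of 11 of the 35 genes (31.4%), against 832 of 21630 protein-coding promoters (3.85%) and 287 of the 12056 that belong to tested protein-coding genes (2.38%). The stricter form TGATGCAA occurred in 9 of the 35 (25.7%), against 0.994% and 0.506% of the same promoters. The windows below are printed on the gene's strand, 5′ to 3′, with the motif in capitals, in the orientation in which that strand carries it. They were picked to show Pck2 and Gars1, the genes that passed the test below, beside carriers from the other roles and the further synthetases Cars1, Iars1 and Tars1. Not all of the 13 sites found are printed.
Pck2, chr14:55777609-55777638, plus strand: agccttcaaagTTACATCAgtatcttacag
Gars1, chr6:55014945-55014974, plus strand: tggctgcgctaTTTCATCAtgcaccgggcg
Ddit3, chr10:127126350-127126379, plus strand: gttgccaaacaTTGCATCAtccccgccccc
Chac1, chr2:119181519-119181548, plus strand: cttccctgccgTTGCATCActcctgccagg
Pycr1, chr11:120534659-120534688, minus strand: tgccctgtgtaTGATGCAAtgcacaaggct
Slc7a11, chr3:50398110-50398139, minus strand: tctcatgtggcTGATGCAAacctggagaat
Cars1, chr7:143153782-143153811, minus strand: cggcgccgcggTTGCATCAgattctggaag
Iars1, chr13:49835602-49835625, plus strand: cactgtcagtaTTGCATCAcctcc
Tars1, chr15:11399741-11399770, minus strand: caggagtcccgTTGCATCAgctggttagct
The Pck2 motif lay 103 to 96 bases upstream of the canonical transcript's start, and the Gars1 motif downstream of its own, as did those of Cars1 and Iars1. The positions hold for that start alone: the printed stretch around the Pck2 motif also overlaps an annotated exon, as do those of Ddit3 and Chac1. Of the 13 sites found, 10 were upstream of the start and 3 downstream. Among the 12 listed synthetases 5 carried the motif (41.7%), while none of the 11 other cytosolic synthetase and scaffold genes and none of the 17 mitochondrial synthetases did. A match is a description of letters in this window, and its absence says nothing of elements elsewhere.

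Total counts ranged from 32643260 to 45324826 per library. The targeted transcript, Mettl3, was measured at 12.3, 9.18, 4.88 and 9.21 CPM in Mettl3-RNP 1 to 4 and 25.9, 24.5, 11.2 and 26.5 CPM in Pulsed 1 to 4. It was lower in 4 of 4 pairs, with a log2 fold change of -1.30 ± 0.11 (SE, edgeR adjusted p = 0.00543). Of 12 mast cell markers, Kit was counted at 3074 to 5042 CPM and Fcer1a at 2393 to 3212 CPM, whereas Mcpt4 was at 0.675 to 5.59 CPM and Tpsab1, which was too low to be tested, at 0 to 0.210 CPM. Levels are given in CPM, which divides a gene's count by the TMM-scaled library total and multiplies it by 1000000, and fold changes as fitted log2 differences of Mettl3-RNP minus Pulsed with the replicate number as a block. A gene passed at an adjusted p of 0.05 or less.

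Resting BMMCs expressed most of the set, and the levels spread widely between genes. Compared per kb of transcript, the highest mean level was that of Slc3a2, the heavy chain shared by several amino acid transporters, at 260.2 CPM per kb. Atf4 came next at 193 CPM per kb, above Nars1 at 53.5, Ddit4 at 46.1 and Shmt2 at 41.9. At the other end stood Vldlr at 0.0188, Chac1 at 0.0890 and Slc7a11 at 0.115 CPM per kb. Chac1, a glutathione-degrading enzyme often used as a marker of ATF4 activity, was counted at 0.0269, 0.164, 0.0335 and 0.456 CPM in Mettl3-RNP 1 to 4 and 0.0563, 0.0783, 0.149 and 0.219 CPM in Pulsed 1 to 4. Vldlr, a lipoprotein receptor, was counted at 0.188, 0.140, 0.100 and 0.0855 CPM in Mettl3-RNP 1 to 4 and 0.113, 0.131, 0.373 and 0.110 CPM in Pulsed 1 to 4. Both were thus near the limit of detection in both groups, and no fold change is given for them.

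**Figure D1:**
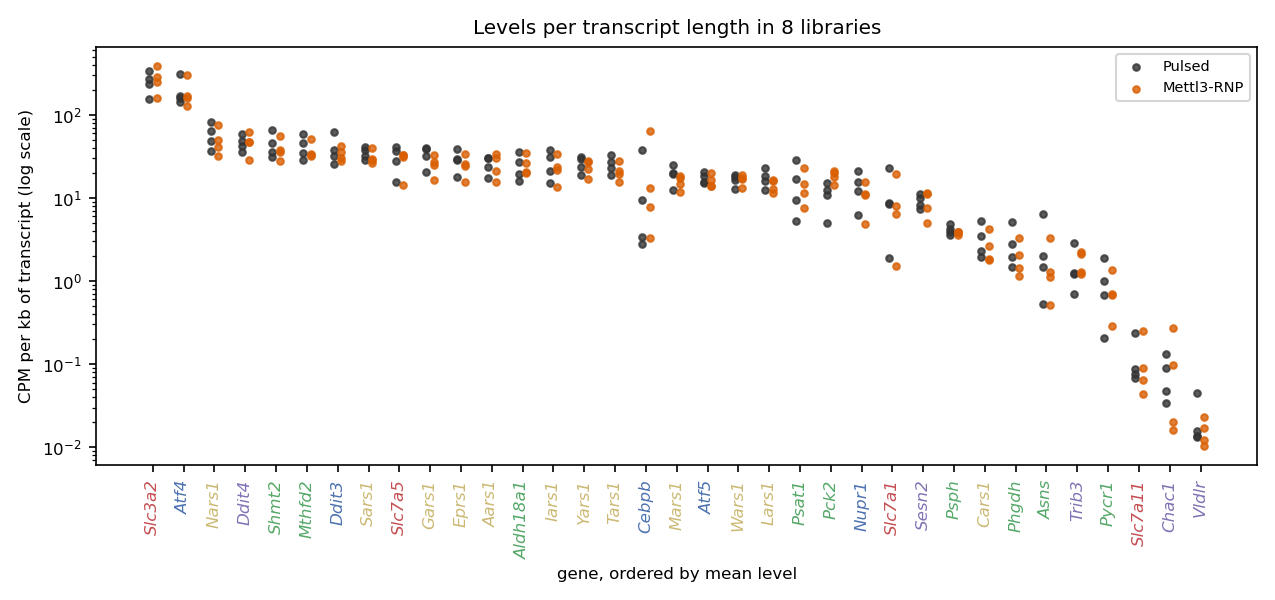
Level of each of the 35 genes in the 8 libraries, as CPM per kb of transcript on a log axis, ordered by the mean level. Points are single libraries (grey for Pulsed, orange for Mettl3-RNP), and name colours give the role (blue for transcription factors, purple for brakes and effectors, green for enzymes, red for transporters, yellow for synthetases). Slc3a2 and Atf4 lie above the others, and Slc7a11, Chac1 and Vldlr lie lowest.

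After Mettl3 deletion 2 of the 33 tested genes passed the test, Pck2 rising and Gars1 falling. Among all 14942 genes 3.74% passed, 2.35% upward and 1.39% downward, so 2 of 33 is near the background. With a fold change of at least 1.5 as a further condition Pck2 alone remained, against 2.06% of all genes. At an unadjusted p under 0.05 there were 13 of 33 genes (11 lower and 2 higher), where 22.5% of all genes reached that p in either direction and 10.7% as lower. Of the 33 genes 26 had a fitted change below 0, compared with 50.2% of all genes. In 4 of 4 pairs 13 genes were lower (39.4%, background 16.0%) and 2 were higher, Pck2 and Slc3a2 (background 15.7%). Of these 13 lower genes, 9 were among the 12 synthetases (75.0%) and 4 among the 21 other tested genes (19.0%). The levels of the groups overlapped for every tested gene of the set, while they did not overlap for 3.23% of all genes. Without the pairing none of the set passed in edgeR, nor did any of the 14942 genes, although 579 had an unadjusted p under 0.05.

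The median log2 fold change over the 33 genes was -0.16, and -0.0013 over all genes tested. The 4 pairs gave medians of -0.11, -0.19, -0.14 and -0.17 over the 33 genes, and the corresponding medians over all genes lay between -0.026 and 0.020. The 21 genes other than synthetases had a median of -0.12, and the 12 synthetases one of -0.21. These medians describe the list and were not tested. The 9 tested genes that carry TGATGNAA had a median of -0.18 and the 24 without it one of -0.13. Both genes that passed, Pck2 as higher and Gars1 as lower, belong to the carriers, and a part of the element in these changes was not tested.

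**Figure D2:**
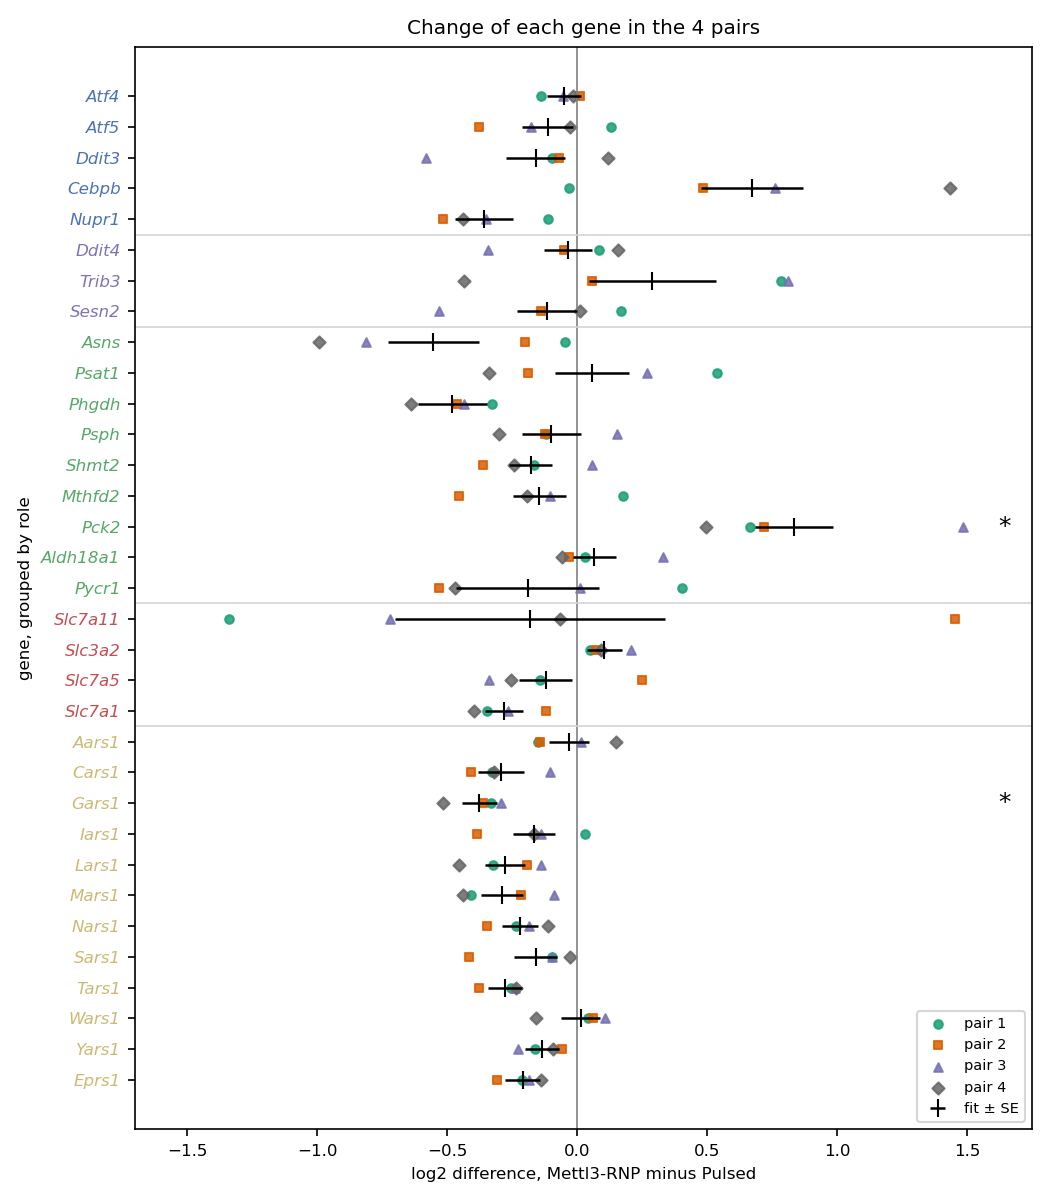
Log2 difference of Mettl3-RNP minus Pulsed for the 33 tested genes, grouped by role. Coloured points are the 4 pairs, the black bar is the fitted log2 fold change with its SE, and asterisks mark Pck2 and Gars1, the genes with an adjusted p of 0.05 or less. Most synthetase points lie left of 0, whereas the enzymes and transporters scatter on both sides.

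Among the 5 transcription factors of the response none passed in edgeR, 2 (Cebpb and Nupr1) had an unadjusted p under 0.05, and Cebpb alone passed in DESeq2. The shares over all genes were 22.5% at that p and 9.97% of calls in DESeq2. Atf4 (ENSMUSG00000042406, chromosome 15 from 80139372 to 80141745 on the plus strand, GRCm39) was measured at 225, 281, 527 and 291 CPM in Mettl3-RNP 1 to 4 and 248, 279, 548 and 294 CPM in Pulsed 1 to 4. Each pair held nearly the same level, and libraries numbered 3 were high in both groups. The log2 fold change of Atf4 was -0.050 ± 0.066 (SE, edgeR adjusted p = 0.711), with paired differences of -0.14, 0.012, -0.056 and -0.018. Ddit3, which encodes CHOP, the factor that links lasting stress to cell death, ranged over 25.4 to 61.3 CPM with a log2 fold change of -0.16 ± 0.11 (SE, edgeR adjusted p = 0.467). Its exons overlap Mars1 on the opposite strand, and since strand use in the counting is not stated, reads of the 2 genes cannot be told apart there. Atf5, a relative of ATF4 under similar translational control, had a log2 fold change of -0.11 ± 0.10 (SE, edgeR adjusted p = 0.553).

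Cebpb, a partner of ATF4 that also drives myeloid cytokine genes, was counted at 4.95, 19.7, 97.4 and 11.6 CPM in Mettl3-RNP 1 to 4 and 5.06, 14.1, 57.4 and 4.25 CPM in Pulsed 1 to 4. It stood higher in Mettl3-RNP libraries of pairs 2, 3 and 4 and was almost level in pair 1. The fitted log2 fold change of 0.67 ± 0.20 (SE, edgeR adjusted p = 0.0953) missed the threshold. Nupr1, a small stress-induced chromatin protein, was counted at 9.29, 9.02, 4.08 and 12.8 CPM in Mettl3-RNP 1 to 4 and 10.04, 12.9, 5.22 and 17.4 CPM in Pulsed 1 to 4. It was lower in 4 of 4 pairs, with a log2 fold change of -0.36 ± 0.11 (SE, edgeR adjusted p = 0.112).

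None of the 3 tested brakes and effectors passed in edgeR or DESeq2, and none had an unadjusted p under 0.05. Ddit4 (REDD1, an inhibitor of the growth kinase complex mTORC1) was measured at 109, 82.1, 50.2 and 82.7 CPM in Mettl3-RNP 1 to 4 and 103, 85.1, 63.8 and 74.1 CPM in Pulsed 1 to 4. The pairs disagreed in sign, and the log2 fold change was -0.037 ± 0.092 (SE, edgeR adjusted p = 0.858). Sesn2, a leucine sensor that also restrains mTORC1, had a log2 fold change of -0.12 ± 0.12 (SE, edgeR adjusted p = 0.614). Trib3, a pseudokinase that feeds back on ATF4, had a log2 fold change of 0.29 ± 0.24 (SE, edgeR adjusted p = 0.546), with paired differences of 0.78, 0.057, 0.81 and -0.44. Trib3 was thus higher in pairs 1 to 3 and lower in pair 4.

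Of the 9 enzymes Pck2 rose and 8 did not pass. Pck2 (ENSMUSG00000040618, chromosome 14 from 55777542 to 55788758 on the plus strand, GRCm39) encodes the mitochondrial phosphoenolpyruvate carboxykinase, which feeds carbon from the citric acid cycle toward serine and glycerol. It was counted at 92.1, 82.9, 65.8 and 98.5 CPM in Mettl3-RNP 1 to 4 and 58, 50.4, 23.4 and 69.9 CPM in Pulsed 1 to 4. Each Mettl3-RNP library lay above its partner, although the lowest Mettl3-RNP library remained below the highest Pulsed one. The means were 84.8 ± 14.2 CPM in Mettl3-RNP libraries and 50.4 ± 19.7 CPM in Pulsed libraries (SD, n = 4 each). The log2 fold change was 0.83 ± 0.15 (SE, edgeR adjusted p = 0.0314), or 1.78-fold, with paired differences of 0.67, 0.72, 1.49 and 0.49. Leaving out pair 1 gave an adjusted p of 0.0645 and leaving out pair 2 one of 0.112 in edgeR, while the log2 fold change was 0.86 and 0.87. Over all genes the same fits called 332 and 26 genes in place of 559. Gm10876 overlaps its exons on the opposite strand.

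Asns, asparagine synthetase, was counted at 2.53, 6.24, 5.52 and 15.96 CPM in Mettl3-RNP 1 to 4 and 2.62, 7.18, 9.72 and 31.8 CPM in Pulsed 1 to 4. The library Pulsed 4 was far above the others, and the groups overlapped. Asns was lower in 4 of 4 pairs by widely different amounts, -0.047, -0.20, -0.81 and -0.99 on the log2 scale, and the fitted value of -0.55 ± 0.17 (SE, edgeR adjusted p = 0.114) did not pass. Phgdh, which opens serine synthesis from glycolysis, was counted at 2.21, 3.85, 2.74 and 6.27 CPM in Mettl3-RNP 1 to 4 and 2.79, 5.33, 3.73 and 9.80 CPM in Pulsed 1 to 4. It was also lower in 4 of 4 pairs, with a log2 fold change of -0.48 ± 0.13 (SE, edgeR adjusted p = 0.0865).

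The later steps of serine synthesis gave smaller values. Psat1 had paired differences of 0.54, -0.19, 0.27 and -0.34 and a log2 fold change of 0.057 ± 0.14 (SE, edgeR adjusted p = 0.857). Psph had a log2 fold change of -0.10 ± 0.11 (SE, edgeR adjusted p = 0.666). Shmt2, which moves a carbon unit from serine to folate in mitochondria, was counted at 63.8, 82.5, 86.4 and 127 CPM in Mettl3-RNP 1 to 4 and 71.6, 106, 83.1 and 149.8 CPM in Pulsed 1 to 4. It was lower in 3 of 4 pairs, with a log2 fold change of -0.18 ± 0.083 (SE, edgeR adjusted p = 0.250). Mthfd2, the next mitochondrial folate enzyme, had a log2 fold change of -0.15 ± 0.10 (SE, edgeR adjusted p = 0.459). The proline synthesis genes Aldh18a1 and Pycr1 had log2 fold changes of 0.066 ± 0.083 (SE, edgeR adjusted p = 0.697) and -0.19 ± 0.27 (SE, edgeR adjusted p = 0.739), respectively.

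**Figure D3:**
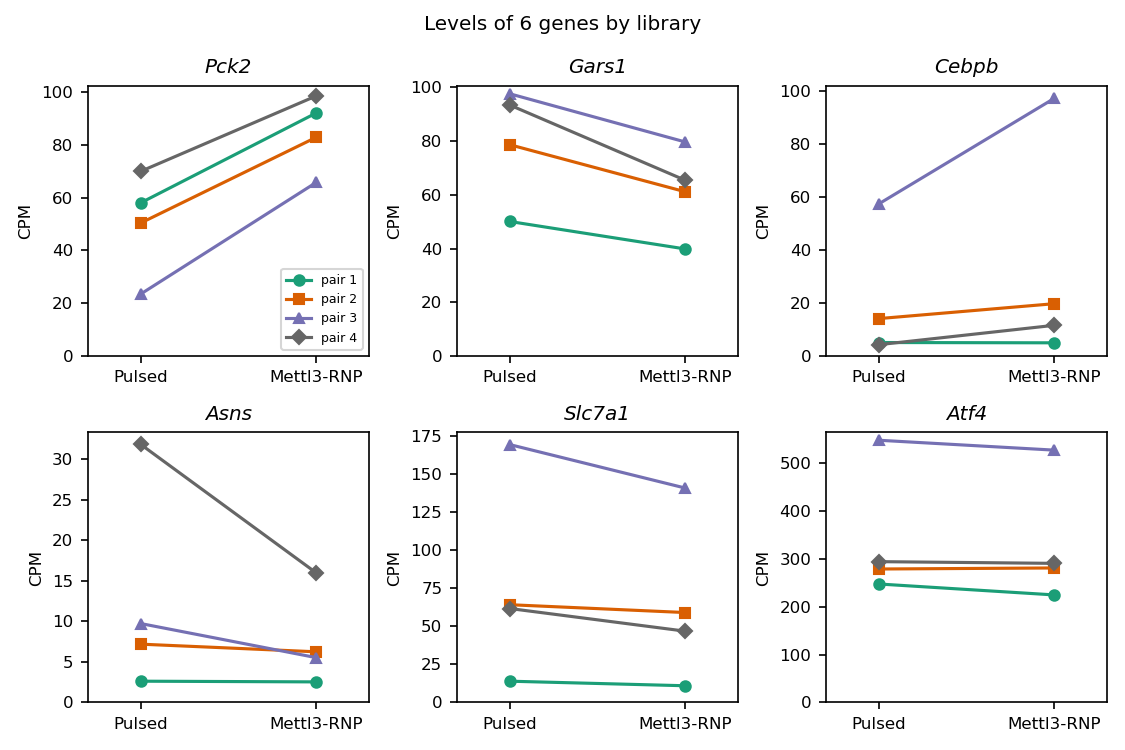
CPM of 6 genes in the 8 libraries on linear axes that start at 0, with a line joining the libraries of each pair. Pck2 rises and Gars1 falls in each pair, and in all 6 genes the range between pairs exceeds the difference within most of them.

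None of the 4 transporters passed in edgeR or DESeq2, and 1 (Slc7a1) had an unadjusted p under 0.05, as did 22.5% of all genes. Slc3a2 was counted at 409.7, 724, 993 and 643 CPM in Mettl3-RNP 1 to 4 and 396, 689, 861 and 604 CPM in Pulsed 1 to 4. It was higher in 4 of 4 pairs by small amounts, with a log2 fold change of 0.10 ± 0.067 (SE, edgeR adjusted p = 0.408). Slc7a5, the large neutral amino acid transporter that pairs with Slc3a2, had a log2 fold change of -0.12 ± 0.10 (SE, edgeR adjusted p = 0.546). Slc7a1, a carrier of arginine and lysine, was counted at 10.9, 59.1, 141 and 46.8 CPM in Mettl3-RNP 1 to 4 and 13.9, 64.2, 169.5 and 61.7 CPM in Pulsed 1 to 4. It was lower in 4 of 4 pairs, with a log2 fold change of -0.28 ± 0.074 (SE, edgeR adjusted p = 0.0761). Slc7a11, the cystine importer, was counted at 0.834, 2.31, 0.401 and 0.599 CPM in Mettl3-RNP 1 to 4 and 2.19, 0.809, 0.696 and 0.630 CPM in Pulsed 1 to 4. Libraries Pulsed 1 and Mettl3-RNP 2 stood above the rest, the pairs went both ways, and the log2 fold change of -0.18 ± 0.52 (SE, edgeR adjusted p = 0.877) had the widest error of the set.

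The synthetases, which load each tRNA with its amino acid, had small differences of mostly the same sign. Gars1, the glycyl-tRNA synthetase, fell, and the other 11 did not pass. Gars1 (ENSMUSG00000029777, chromosome 6 from 55014927 to 55061231 on the plus strand, GRCm39) was counted at 39.8, 61.1, 79.7 and 65.4 CPM in Mettl3-RNP 1 to 4 and 50.1, 78.7, 97.6 and 93.4 CPM in Pulsed 1 to 4. Each Mettl3-RNP library was below its partner, and the groups overlapped, with pair 1 low in both. The means were 61.5 ± 16.5 CPM in Mettl3-RNP libraries and 79.95 ± 21.5 CPM in Pulsed libraries (SD, n = 4 each). The log2 fold change was -0.38 ± 0.069 (SE, edgeR adjusted p = 0.0324), a fold of 0.771, with paired differences of -0.33, -0.36, -0.29 and -0.51. The call was lost in edgeR without pair 1 (adjusted p = 0.0949), pair 2 (0.137) or pair 4 (0.253), and with every gene of at least 1 count tested (0.0955).

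Of the 12 listed synthetases 11 had a fitted change below 0, 9 were lower in 4 of 4 pairs (75.0%) and 7 had an unadjusted p under 0.05, all of them lower. The shares over all genes were 50.2%, 16.0% and, for lower genes at that p, 10.7%. Cars1, for cysteine, was counted at 12.3, 17.96, 12.2 and 28.5 CPM in Mettl3-RNP 1 to 4 and 15.5, 23.8, 13.1 and 35.6 CPM in Pulsed 1 to 4, with a log2 fold change of -0.29 ± 0.089 (SE, edgeR adjusted p = 0.105). Tars1, for threonine, was counted at 62.9, 84.6, 78.6 and 112 CPM in Mettl3-RNP 1 to 4 and 74.9, 110, 92.8 and 131 CPM in Pulsed 1 to 4, with a log2 fold change of -0.28 ± 0.066 (SE, edgeR adjusted p = 0.0619). Each of these genes was lower in every pair, yet neither passed.

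Mars1, for methionine, was counted at 43.2, 51.1, 34.7 and 53.5 CPM in Mettl3-RNP 1 to 4 and 57.4, 59.4, 36.9 and 72.6 CPM in Pulsed 1 to 4, with a log2 fold change of -0.29 ± 0.081 (SE, edgeR adjusted p = 0.0865). Lars1, for leucine, was counted at 50.95, 64.7, 45.4 and 66.3 CPM in Mettl3-RNP 1 to 4 and 63.9, 73.9, 49.97 and 90.8 CPM in Pulsed 1 to 4, with a log2 fold change of -0.28 ± 0.076 (SE, edgeR adjusted p = 0.0824). Both were lower in 4 of 4 pairs, and pair 4 was among the largest differences of each.

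Nars1, for asparagine, was counted at 113, 136, 88.4 and 207 CPM in Mettl3-RNP 1 to 4 and 133, 174, 100.5 and 224 CPM in Pulsed 1 to 4, with a log2 fold change of -0.22 ± 0.070 (SE, edgeR adjusted p = 0.115). Eprs1, which joins the glutamyl and prolyl activities in one protein, was counted at 98.9, 153, 215 and 163 CPM in Mettl3-RNP 1 to 4 and 114, 189, 244 and 179.5 CPM in Pulsed 1 to 4, with a log2 fold change of -0.21 ± 0.066 (SE, edgeR adjusted p = 0.115). Their paired differences were likewise all below 0. For the remaining 5 listed synthetases the log2 fold changes were -0.17 for Iars1, -0.16 for Sars1, -0.13 for Yars1, -0.033 for Aars1 and 0.013 for Wars1.

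The same comparison was extended to the 8 other cytosolic synthetases and 17 mitochondrial ones. All 8 other cytosolic genes had a fitted change below 0, 7 of them were lower in 4 of 4 pairs, and their median log2 fold change was -0.23. Vars1, for valine, fell, with a log2 fold change of -0.36 ± 0.077 (SE, edgeR adjusted p = 0.0481). The call of Vars1 was lost when any one pair was left out, at adjusted p values of 0.135, 0.124, 0.0687 and 0.315 for pairs 1 to 4 in edgeR. It was also lost with DESeq2 size factors (0.0546), with library size alone (0.0687) and with every gene of at least 1 count tested (0.118). Kars1, for lysine, had a log2 fold change of -0.23 ± 0.067 (SE, edgeR adjusted p = 0.0929), and Hars1, for histidine, one of -0.11 ± 0.073 (SE, edgeR adjusted p = 0.413). Over all 20 cytosolic synthetases 2 passed as lower, 19 were fitted below 0 and 16 were lower in 4 of 4 pairs (80.0%), with a median of -0.23. Over all genes the shares were 1.39%, 50.2% and 16.0%. The summed level of the 12 listed genes was 789 to 1314 CPM in Mettl3-RNP and 897 to 1458 CPM in Pulsed libraries, so the groups overlapped.

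The mitochondrial synthetases are encoded by separate nuclear genes. Of these 17, none passed in edgeR or DESeq2, 7 had an unadjusted p under 0.05 in edgeR, 11 were fitted below 0, 5 were lower in 4 of 4 pairs and 3 were higher in 4 of 4. Among all genes 22.5% had such a p, 50.2% were fitted below 0, 16.0% were lower and 15.7% higher in every pair. The median log2 fold change of the 17 was -0.041. Nars2 (-0.48 ± 0.16, edgeR adjusted p = 0.120) and Lars2 (-0.35 ± 0.11, edgeR adjusted p = 0.122) stood at the lower end. Fars2 (0.35 ± 0.10, edgeR adjusted p = 0.0971) lay among the higher ones, and Tars2 had a log2 fold change of -0.0023. The difference between the cytosolic and the mitochondrial genes was not tested, since genes are not replicates. The carriers of the C/EBP-ATF element lie only among the listed cytosolic genes in these 3 classes. The medians of the listed and the other cytosolic genes were -0.21 and -0.23, and a part of the element in these values was not tested.

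**Figure D4:**
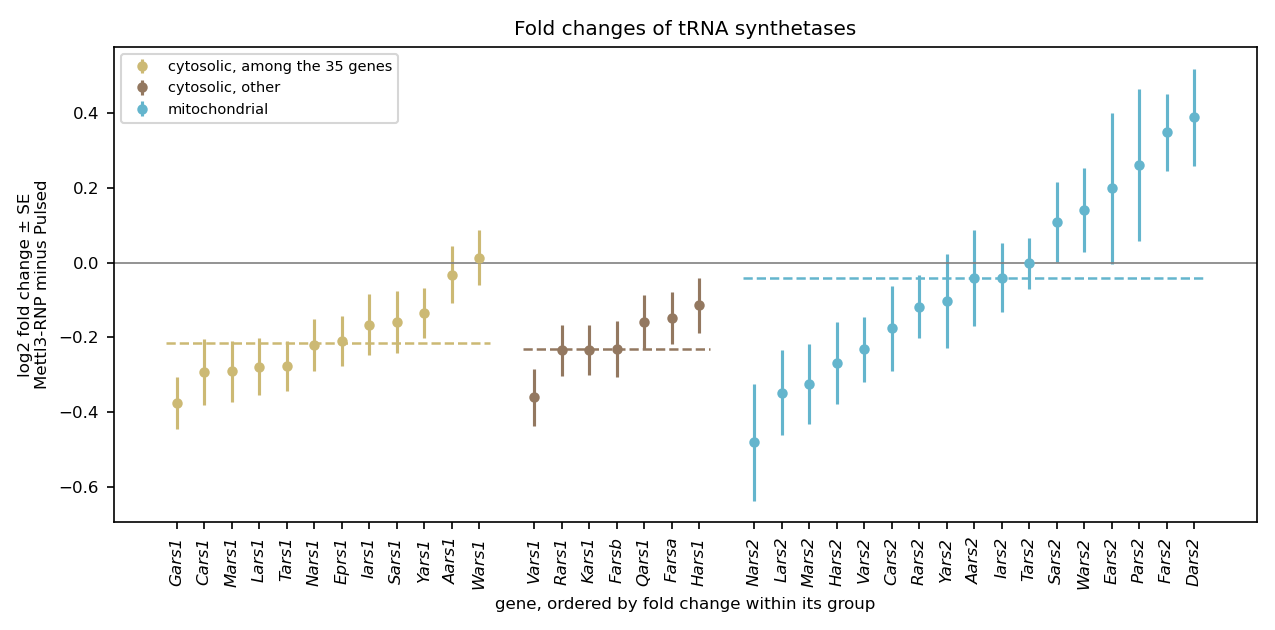
Fitted log2 fold change with its SE for tRNA synthetases, ordered within 3 classes, with a dashed line at each class median (-0.21 for the 12 listed, -0.23 for the 8 other cytosolic and -0.041 for the 17 mitochondrial genes). Of the 20 cytosolic genes Wars1 alone lies above 0, and the mitochondrial genes spread on both sides. The class medians include 1 cytosolic gene that is not drawn.

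Levels of the set differed widely between replicate numbers. In the same fit 30 of the 33 genes (90.9%) differed between replicate numbers at an adjusted p of 0.05 or less, where 53.9% of all genes did. The exceptions were Atf5, Psph and Slc7a11. A median of 91.6% of the variance of log2 CPM of these genes lay between replicate numbers and 4.998% between groups, and the corresponding medians over all genes were 78.3% and 5.68%. Between the highest and lowest replicate number Cebpb differed 14.8-fold, Slc7a1 12.4-fold, Asns 8.60-fold, Pycr1 6.05-fold and Psat1 4.05-fold. The median range was 2.11-fold for the set and 1.83-fold for all genes. Whether a number stands for a mouse, a culture or a day of work cannot be told apart from the labels.

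The replicate numbers ordered the roles differently. Of the 33 genes 21 were highest in number 4 (background 19.0%), among them all 9 enzymes and 8 of the 12 listed synthetases. Another 9 were highest in number 3 (background 37.9%), including Atf4, Cebpb, Slc3a2, Slc7a5 and Slc7a1. The lowest level was in number 1 for 19 genes (background 27.2%) and in number 3 for 13 (background 33.7%). Atf4 mRNA and the enzymes ATF4 is known to raise thus peaked in different replicate numbers. The enzymes had a median deviation of 0.65 on the log2 scale in number 4 and -0.48 in number 1, whereas the transporters stood at -0.77 in number 1 and 0.49 in number 3.

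**Figure D5:**
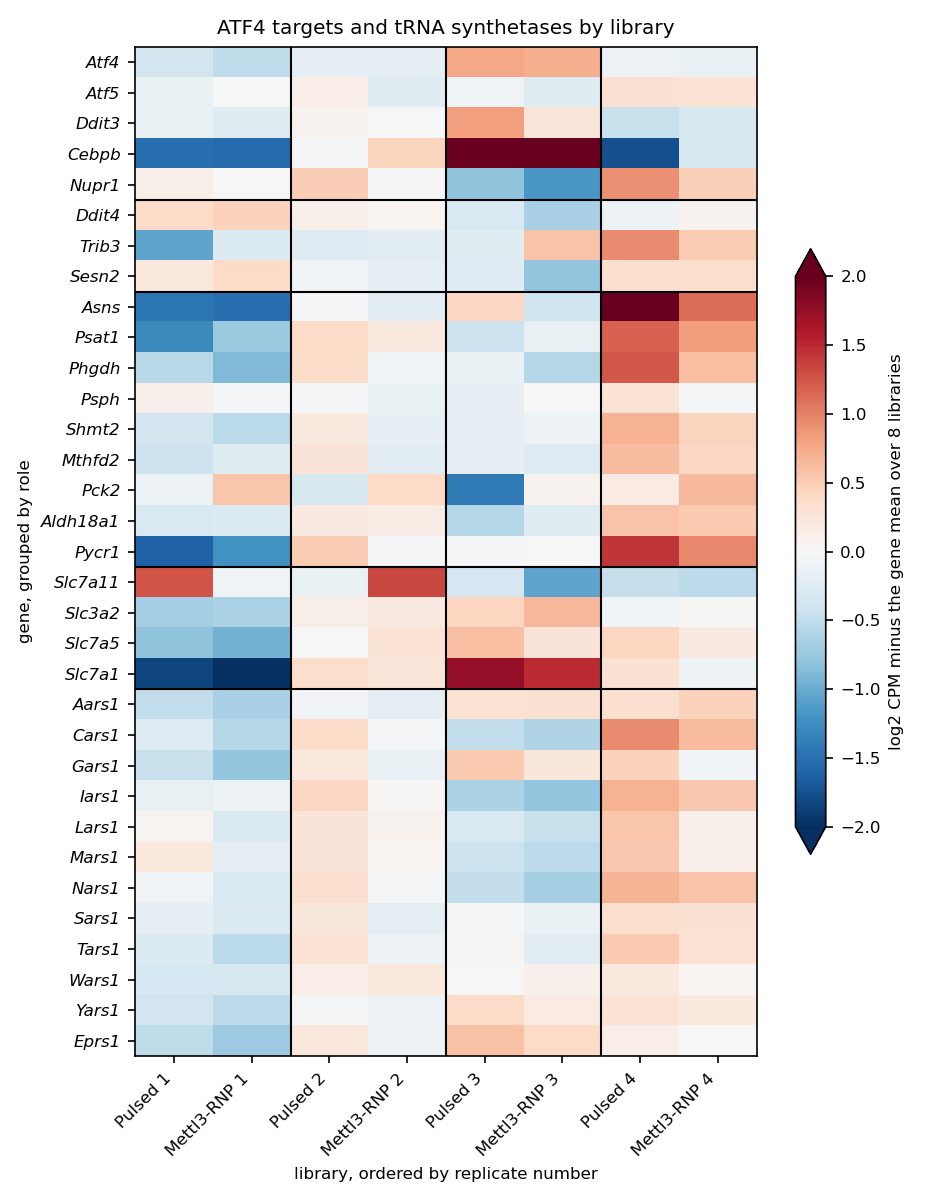
Log2 CPM of the 33 tested genes minus each gene's mean over the 8 libraries, with libraries in columns ordered by replicate number and genes in rows grouped by role. Red is above and blue below the gene's mean, and the scale is capped at 2 in either direction. Partners of a pair resemble each other more than libraries of the same group, and the enzymes are highest in number 4.

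Immediate early genes, which report recent signalling or handling, also varied between replicate numbers, in another order than most of the set. All 10 listed immediate early genes were highest in number 3 and lowest in number 4, with a median range of 332-fold between numbers. Their summed level was 722 to 24940 CPM in Mettl3-RNP and 566 to 21570 CPM in Pulsed libraries. Between the groups none passed in edgeR, 2 had an unadjusted p under 0.05, and 1 (Nr4a1) passed in DESeq2, where all genes gave 22.5% at that p and 9.97% of calls in DESeq2. All 10 immediate early genes were fitted above 0, where 50.2% of all genes lay below it, with a median log2 fold change of 0.30. The pairs differed in sign, with medians over the 10 genes of -0.32, 0.67, 0.23 and 0.43 in pairs 1 to 4. Egr1, at 0.83 ± 0.31 (SE, edgeR adjusted p = 0.158), was the only gene of the 10 that was higher in 4 of 4 pairs. Egr1 spanned 26.3 to 10690 CPM and Junb 61.2 to 4171 CPM. Their part in the levels of Cebpb, Slc7a1 and Atf4, which also peaked in number 3, was not tested.

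Genes upstream of ATF4 were examined from a list of 14. The eIF2 kinases had log2 fold changes of 0.12 for Eif2ak1 (HRI), 0.10 for Eif2ak2 (PKR), -0.090 for Eif2ak3 (PERK) and -0.10 for Eif2ak4 (GCN2), and none passed. Ppp1r15a (GADD34), which directs the phosphatase that reverses eIF2 phosphorylation and is itself an ISR target, had a log2 fold change of 0.22 ± 0.12 (SE, edgeR adjusted p = 0.317). Its constitutive counterpart Ppp1r15b had one of 0.071 ± 0.073 (SE, edgeR adjusted p = 0.630). Among the subunits of eIF2 and its exchange factor eIF2B, the smallest p-values belonged to Eif2b4 (-0.33 ± 0.10, edgeR adjusted p = 0.0971), Eif2s2 (-0.23 ± 0.080, edgeR adjusted p = 0.143) and Eif2b3 (-0.27 ± 0.11, edgeR adjusted p = 0.196). None of the 14 genes passed in edgeR or DESeq2, 4 had an unadjusted p under 0.05 in edgeR, 9 were fitted below 0, and the median was -0.094.

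Of 20 further known ATF4 targets 16 were tested. In edgeR Gdf15 passed and 7 of the 16 had an unadjusted p under 0.05, while DESeq2 called 3, adding Eif4ebp1 and Slc6a9. All genes gave 3.74% of calls in edgeR, 22.5% at that unadjusted p and 9.97% of calls in DESeq2. Eif4ebp1, a repressor of cap-dependent translation, had a log2 fold change of 0.48 ± 0.14 (SE, edgeR adjusted p = 0.0938), and Slc6a9, a glycine transporter, one of 0.35 ± 0.11 (SE, edgeR adjusted p = 0.118). Both were higher in 4 of 4 pairs and are named after their values had been seen. Gdf15, a secreted stress cytokine that p53 also induces, was counted at 13.3, 26.5, 2.74 and 16.8 CPM in Mettl3-RNP 1 to 4 and 8.33, 4.75, 1.52 and 3.31 CPM in Pulsed 1 to 4. It was higher in 4 of 4 pairs, with a log2 fold change of 1.63 ± 0.33 (SE, edgeR adjusted p = 0.0374), or 3.10-fold. Without pair 2 its edgeR adjusted p was 0.150. Xpot, the export factor that carries tRNA out of the nucleus, had a log2 fold change of -0.28 ± 0.064 (SE, edgeR adjusted p = 0.0577) and was lower in every pair. Cebpg, a dimer partner of ATF4, had a log2 fold change of 0.28 ± 0.080 (SE, edgeR adjusted p = 0.0931). The most abundant genes of the list per kb were Sqstm1 (-0.14 ± 0.076, edgeR adjusted p = 0.330), an autophagy receptor, and Slc38a2 (-0.17 ± 0.095, edgeR adjusted p = 0.355), a glutamine transporter. The median of the 16 genes was -0.051.

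In the folate and serine pathway outside the set none of 11 genes passed in edgeR or DESeq2, and 3 had an unadjusted p under 0.05 in edgeR (22.5% of all genes). The median of the 11 was -0.016. The smallest p-values belonged to Mthfd1 (-0.39 ± 0.12, edgeR adjusted p = 0.104), the cytosolic folate enzyme, Shmt1 (-0.502 ± 0.18, edgeR adjusted p = 0.152), the cytosolic counterpart of Shmt2, and Gcsh (0.33 ± 0.14, edgeR adjusted p = 0.207) of the glycine cleavage system. The highest levels were those of Sfxn1 (-0.027 ± 0.076, edgeR adjusted p = 0.875), the mitochondrial serine carrier, and Tyms (-0.023 ± 0.072, edgeR adjusted p = 0.888), thymidylate synthase.

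The other branches of the unfolded protein response, which run through XBP1 and ATF6, were described by 18 genes, of which 1 rose and 1 fell. Pdia4, a disulfide isomerase of the endoplasmic reticulum, was counted at 167, 292, 233 and 329 CPM in Mettl3-RNP 1 to 4 and 131, 192, 134 and 197 CPM in Pulsed 1 to 4. It rose in 4 of 4 pairs, with a log2 fold change of 0.63 ± 0.088 (SE, edgeR adjusted p = 0.0171). Xbp1, which encodes the transcription factor of one branch, was counted at 241, 343, 261 and 202 CPM in Mettl3-RNP 1 to 4 and 323, 397, 329 and 286 CPM in Pulsed 1 to 4. It fell in 4 of 4 pairs, with a log2 fold change of -0.37 ± 0.073 (SE, edgeR adjusted p = 0.0386); the counts do not separate its spliced form. The call of Pdia4 was lost without pair 2 (edgeR adjusted p = 0.0872), and that of Xbp1 was lost without any one pair, at 0.114, 0.107, 0.0730 and 0.273 for pairs 1 to 4. Xbp1 also missed the threshold with library size alone (edgeR adjusted p = 0.0583) and with every gene of at least 1 count tested (0.0990). Edem1, which helps discard misfolded glycoproteins, had a log2 fold change of -0.31 ± 0.080 (SE, edgeR adjusted p = 0.0731). The abundant chaperones Calr (-0.10 ± 0.092, edgeR adjusted p = 0.578) and Hsp90b1 (-0.14 ± 0.093, edgeR adjusted p = 0.443) did not pass. The median of the 18 genes was -0.15. Over all 91 genes of these further lists, 87 were tested, and 2 passed upward and 2 downward, beside 2.35% and 1.39% of all genes, which is near the background.

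Markers of macrophages, neutrophils and eosinophils were counted at low levels, whereas the basophil list held both abundant and scarce genes. The summed level of 8 macrophage and monocyte markers was 1.60 to 4.05 CPM in Mettl3-RNP and 3.34 to 4.95 CPM in Pulsed libraries, and that of 5 eosinophil markers was 2.25 to 3.98 and 4.65 to 8.66 CPM. In these lists Adgre1 (-1.13 ± 0.24, edgeR adjusted p = 0.0435) and Siglecf (-1.497 ± 0.23, edgeR adjusted p = 0.0199) passed as lower, with none of their Mettl3-RNP libraries reaching a Pulsed one. Of all genes 1.39% passed as lower, and the groups did not overlap for 3.23%. Without any one pair the call of Adgre1 was lost (edgeR adjusted p = 0.0906 to 0.110), as it was with library size alone (0.0507), and that of Siglecf was lost without pair 2 (0.0976). Among 7 neutrophil markers 4, S100a8, S100a9, Elane and Camp, had no count in any library, as was true of the eosinophil peroxidase Epx, and the neutrophil sum was at most 0.373 CPM. The 5 basophil markers summed to 599 to 927 CPM and 567 to 736 CPM, a sum carried by Cd200r3 (499 to 819 CPM) and Il3ra (67.1 to 116 CPM). None passed in edgeR, where 1 had an unadjusted p under 0.05, and DESeq2 called 1, Cd200r3 (0.25 ± 0.090, edgeR adjusted p = 0.151), which was higher in 4 of 4 pairs. For all genes these shares were 22.5% at that p in edgeR and 9.97% of calls in DESeq2. The other 3 basophil markers were at low levels, Mcpt8 at 0.511 to 4.03 CPM, Prss34 at 0.135 to 1.74 CPM and Itga2 at 0.114 to 0.731 CPM. These 3 were lower in 4 of 4 pairs, with log2 fold changes of -0.42 for Mcpt8, -0.68 for Prss34 and -0.85 for Itga2. The median of the basophil list was -0.42. The 12 mast cell markers summed to 46100 to 62540 CPM in Mettl3-RNP and 49860 to 68260 CPM in Pulsed libraries, and of these Cpa3, the mast cell carboxypeptidase, passed as lower (-0.37 ± 0.070, edgeR adjusted p = 0.0328), a call lost without pair 2 (0.159), 3 (0.0710) or 4 (0.109), with edgeR's newer quasi-dispersion estimate (legacy=FALSE), tried after the data had been seen (0.106), and with at least 10 counts in every library (0.0583). Of the 11 mast cell markers tested 7 were fitted above 0, with a median of 0.13. Mitf (0.30 ± 0.078, edgeR adjusted p = 0.0709) and Il1rl1 (0.24 ± 0.076, edgeR adjusted p = 0.117) were higher in 4 of 4 pairs, and DESeq2 called Cpa3 and Mitf. The part of these cells or of Cpa3 in the values of the ISR genes was not tested.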

How the data were processed

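Total RNA from the 8 BMMC cultures was made into poly-A mRNA libraries and sequenced as paired reads. Per the study's methods and the labels, the authors checked reads with FastQC 0.11.9, aligned them with HISAT2 2.2.1 to GRCm39 (Ensembl annotation) and counted them with featureCounts 2.0.1. What they deposited are unnormalized counts per Ensembl gene, whole numbers throughout, 1 table per library, and strand and multimapping settings are not given in the sources used here. The methods also describe a batch correction of the counts, which was not applied to the whole-number values used here. GENCODE names were found for 56017 of the 56748 IDs (98.7%). Of the 35 genes, 19 have exons that overlap a gene on the opposite strand, so their reads may be shared.

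Genes were kept by filterByExpr of edgeR 4.0.16 (R 4.3.3; a count of about 10 in 4 libraries), libraries were scaled by TMM, and the quasi-likelihood F test compared Mettl3-RNP with Pulsed with the replicate number as a block, adjusted by Benjamini-Hochberg over all genes tested. Standard errors were derived from the F statistic, and paired differences used log2 CPM with a prior count of 2. The joint test of the replicate numbers came from the same fit. The series text names 4 mice for 8 samples. Same-numbered libraries deviated together from their group means over 11985 genes (r = 0.825, 0.489, 0.879 and 0.765 for pairs 1 to 4, and at most 0.183 for libraries of different numbers). Libraries of a group differed well beyond sampling noise (chi-square over its degrees of freedom 52.6 or more) and were counted as separate replicates. P-values measure the spread between these pairs, and counts of reads cover counting error only. The script was tested on simulated data before use.

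Promoters ran from 250 bases upstream to 50 downstream of the canonical GENCODE start, read from the GRCm39 genome. Alternatives were the fit without the block, DESeq2 1.42.0, limma 3.58.1 (voom), other scalings, filters and estimates of the spread, and leaving out each replicate number. The genes and the further lists were chosen with earlier results of these data known. The text names all 35 genes and Mettl3, from the further lists the eIF2 kinases, Ppp1r15a, Ppp1r15b, genes with an adjusted p of 0.05 or less, the 3 smallest p-values and the 2 highest levels per kb of each list, and any marker. Values by library are given for genes of the set with an unadjusted p under 0.05, the 5 highest, the 3 lowest and Atf4. One gene that this rule would name and 1 promoter sequence are left out of the text and figures; the counts given still contain them.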

Additional observations from a re-analysis of the deposited data

Results flagged for a closer look

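In 82 groups of 4 libraries (the 35 genes, Mettl3, the 4 further genes that passed, and total counts, in both groups) 8 values stood apart from the other 3 libraries of their group by Dixon's test at the 95% level, which chance gives in about 1 of 20 groups (4.1 here). Of these, 4 were in libraries numbered 3: Atf4 at 548 CPM in Pulsed 3, Cebpb at 97.4 CPM in Mettl3-RNP 3, Vldlr at 0.373 CPM in Pulsed 3 and Mettl3 at 11.2 CPM in Pulsed 3. Atf4 and Cebpb were also high in the partner library of the same number, and Mettl3 was also lowest in Mettl3-RNP 3. The others were Psph at 8.69 CPM in Mettl3-RNP 2, Mthfd2 at 108.6 CPM in Mettl3-RNP 4, Slc7a11 at 2.19 CPM in Pulsed 1 and Slc7a5 at 49.9 CPM in Mettl3-RNP 1.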

How the results depend on the processing

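Without the replicate block no gene of the set, no gene of the further lists and no gene at all passed (0 against 2, 4 and 559 with it), and Mettl3 stood at -1.31 on the log2 scale with an edgeR adjusted p of 0.744. For the called genes of the set, the further lists and the marker lists, the direction was the same without the block. Leaving out 1 replicate number gave 0 to 2 calls in the set, 0 to 2 in the further lists and 26 to 383 among all genes, lowest without number 2, with a median log2 fold change of the set of -0.22 to -0.12. Requiring a fold of at least 1.5 left 1 gene of the set. Over all genes, DESeq2 called 1208, a fit on every gene with a count 993 and a stricter filter of 10 counts in every library 959; this filter called 7 genes of the further lists, and scaling by library size alone called 2. Under library size alone the set's median was -0.13, with the median of all genes at 0.032. DESeq2 added Cebpb to the calls, the fit on every gene added Cebpb and Asns and lost Gars1, and the stricter filter added Tars1. The median of the 20 cytosolic synthetases lay between -0.26 and -0.19 under all of these settings, with 18 to 20 fitted below 0, and that of the mitochondrial genes between -0.12 and -0.0077.

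Over single genes of the set, 404 of 429 recomputed values kept direction and call, 8 lost and 4 gained a call, and 13 changed sign, all of them without a call. Among the settings, edgeR's older quasi-dispersion estimate (legacy=TRUE) is the same fit as the main one. Its values for the 33 tested genes were therefore kept by construction and say nothing of stability. Psat1 was at -0.092 without the block and -0.013 with voom. Aars1 was at 0.00030 under library size alone. Leaving out 1 replicate number gave -0.13 to 0.21 for Psat1, with -0.021 without number 3, -0.11 to 0.061 for Ddit4, -0.25 to 0.013 for Sesn2, -0.023 to 0.12 for Aldh18a1, -0.79 to 0.22 for Slc7a11, with 0.016 without number 3, and -0.031 to 0.081 for Wars1, with -0.0098 and -0.021 without numbers 2 and 3. The causes were not tested. Levels near 1 CPM or below, as for Slc7a11, Chac1 and Vldlr, limit what these libraries can show.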
